A study of Mus musculus with 8 samples.

Results

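The tumor necrosis factor (TNF) superfamily was examined in CT26 mouse tumors after vehicle, after TP-16 or anti-PD-1 antibody alone, and after both agents. Its members were taken by gene name from the array annotation: every gene named Tnfsf or Tnfrsf with a number, and Tnf, Lta, Ltb, Ltbr, Fas, Fasl, Cd27, Cd70, Cd40, Cd40lg, Eda, Edar and Ngfr. That gave 44 of the 37058 gene names on the array, carried by 74 of 56605 probes, and the rule itself uses no measured value. The 44 names stand for 17 ligands, 26 receptors and 1 antisense RNA, Tnfsf13os, which the naming rule also caught.

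Ligands of this family are made mostly by immune cells as membrane proteins that usually act in groups of identical chains, and some are cut off and act as soluble cytokines. Their receptors fall into those with a death domain, which can start apoptosis, and those without it, which recruit TRAF adaptor proteins and activate NF-kB. In tumors the family is known for killing of target cells through Fas and the TRAIL receptors, and for costimulation of T cells through CD27, OX40 and GITR.

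The CT26 line was derived from a colon carcinoma of a BALB/c mouse. Tumors were grown under the skin from 500000 implanted cells and treated for 2 weeks with vehicle, with TP-16 at 75 mg/kg by mouth every day, with 50 µg of anti-PD-1 antibody into the peritoneum in 2 doses a week, or with both at the same doses (the combination). TP-16, which the labels call BY001, blocks EP4, a receptor of prostaglandin E2, whereas the antibody acts on PD-1, which restrains T cells. Each group had 2 samples of whole tumor tissue, described as biological replicates, and neither the labels nor the methods say whether a sample was 1 tumor or several pooled. In whole tissue, fewer cells of a type and less RNA per cell cannot be told apart.

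RNA went onto one-colour Agilent mouse arrays, all 8 on 1 slide read in 1 scan. Slide row 1 held the groups without the antibody and row 2 those with it, while columns 3 and 4 held the groups given TP-16, so that slide row and antibody, and slide column and TP-16, cannot be told apart. Between 51.4% and 59.7% of probes per array were well above background, and none was saturated. The 75th percentile of intensity was 371.1 and 378.6 in vehicle and 398.4 and 415.3 with the antibody. It was 530.8 and 551.1 with TP-16 and 607.9 and 733.7 with the combination. Relative to that percentile, the lowest log2 signal well above background ran from -3.82 on vehicle array 2 to -4.93 on combination array 2. The part of array brightness in the values of dim genes was not tested. Replicates correlated at 0.9778 in vehicle and at 0.9883 to 0.9915 in the other groups, and 28 of the 41 tested family genes read lower on vehicle array 1 than on vehicle array 2 (56.1% of all genes did). On combination array 1, 29 of the 41 read lower than on combination array 2, where 37.3% of all genes did. Of 7 markers of epithelial tumor cells, Epcam and Vil1 were not well above background on both arrays of any group, and 5 (Krt8, Krt18, Krt19, Cdh1 and Cdx2) were measured.

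Testing required a probe to stand well above background on both arrays of some group. This held for 61 of the 74 family probes and 41 of the 44 genes, and left out Cd40lg, the ligand of CD40, Edar, the ectodysplasin receptor, and Tnfrsf8, which encodes CD30. Of the 41 genes, 31 were well above background on all 8 arrays. On both arrays of a group the number was 31 in vehicle, 39 with TP-16, 36 with anti-PD-1 antibody and 40 with the combination, so that several genes entered the test only through treated groups. The level of a gene is the log2 signal minus the 75th percentile of its array, a difference of 1 is a 2-fold change, and each gene is given by its tested probe with the highest mean. Levels of different genes are not compared, since probes differ in brightness.

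Against vehicle, the combination went with a rise of 11 of the 41 genes and a fall of 1 at a fold of at least 2 and a p of at most 0.05 in limma, adjusted over all 31912 tested probes. Those 12 genes were 29.3% of the family, where 14.2% of all 21616 tested genes were called. The 11 risen genes (26.8%) stood beside 5.57% of all genes called higher, and the 1 fallen gene (2.44%) beside 8.61% of all genes called lower. The risen genes were the ligands Fasl, Ltb, Tnfsf10, Tnf and Tnfsf4 and the receptors Cd27, Tnfrsf18, Tnfrsf4, Tnfrsf1b, Tnfrsf11b and Tnfrsf25, and the fallen gene was Tnfrsf12a. The median log2 fold change over the 41 genes was 0.65, and that over all genes was -0.24. With the 4 genes that neither vehicle array showed well above background at their bounds, or at 0 where no fold can be given, the family's median was 0.56. Among the 16 tested ligands the median was 1.22 (0.88 with bounds), with 5 risen and 0 fallen, and among the 24 tested receptors it was 0.42 (0.18 with bounds), with 6 risen and 1 fallen. All 12 calls were lost without combination replicate 2, when 0 of all 31912 tested probes passed, and 7 were lost without combination replicate 1. Leaving out any other array ended 2 to 5 of the 12 calls.

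**Figure D1:**
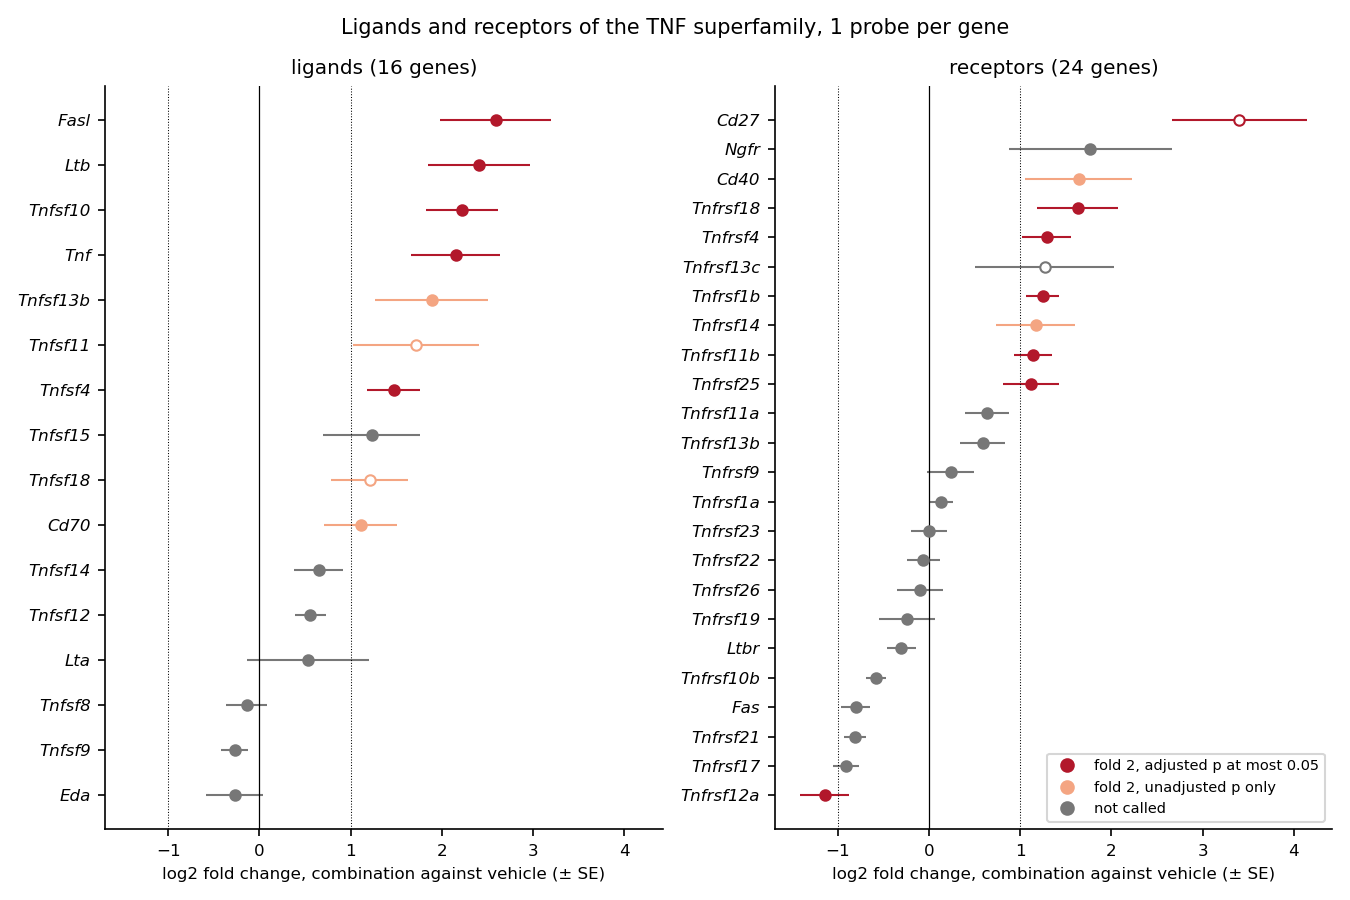
Log2 fold change between combination and vehicle (horizontal axis, with standard error) of the 16 ligands and 24 receptors tested, 1 probe per gene, with dotted lines at a fold of 2. The 12 genes called at adjusted p are dark red, and open circles mark the 4 genes that neither vehicle array showed well above background (Cd27, Tnfrsf13c, Tnfsf11 and Tnfsf18), whose positions are fitted values and not measured sizes. Of the genes with filled circles, Fasl lies farthest right at 2.59 and Tnfrsf12a farthest left at -1.14.

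At an unadjusted p of at most 0.05 with the same fold, limma called 18 of the 41 genes in the combination against vehicle (17% of all genes). The t-test that the study's methods pair with this threshold called 4 of 41 (8.20% of all genes), and after adjustment it called none. Besides the 12 genes above, the 18 called by limma were Cd40, Cd70, Tnfrsf14, Tnfsf11, Tnfsf13b and Tnfsf18, all with higher means in the combination. Neither vehicle array showed Tnfsf18 or Tnfsf11 well above background, Tnfsf18 entered the test only through the combination, and neither was higher after normexp correction (-0.32 and -0.04). Quantile normalization called Cd70, Tnfsf11 and Tnfsf18 at adjusted p (0.0167, 0.0157 and 0.0113), while after normexp correction Cd70 differed by 0.07 (adjusted p = 0.716). Cd40, the receptor through which helper T cells license antigen-presenting cells, differed by 1.64 ± 0.59 (log2, SE; adjusted p = 0.0825). Tnfsf13b, which encodes the B cell survival factor BAFF, differed by 1.89 ± 0.62 (adjusted p = 0.0653). After normexp correction both were called, Cd40 at 1.07 (adjusted p = 0.0390) and Tnfsf13b at 1.05 (adjusted p = 0.0286). Vehicle array 1 was the lowest in both, at -2.76 against -0.88 on vehicle array 2 for Cd40 and at -3.54 against -1.62 for Tnfsf13b. Tnfrsf14, which encodes HVEM, differed by 1.17 ± 0.43 (adjusted p = 0.0853), with -2.60 and -1.33 on the vehicle arrays. Without vehicle replicate 1 the difference was 0.69 for Cd40, 0.93 for Tnfsf13b, 0.53 for Tnfrsf14 and 0.56 for Cd70, all below a fold of 2. Without vehicle replicate 2 the differences were 2.58, 2.84, 1.80 and 1.67 in the same order. For Cd70 the vehicle array then left was not well above background, so 1.67 is a fitted value and not a measured size.

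Fasl and Tnfsf10 rose in the combination against vehicle at the probe used for each gene. Fasl, which cytotoxic T cells and NK cells use to kill target cells through Fas, had levels of -3.10 and -1.28 in vehicle, -0.33 and -0.95 with TP-16, -0.38 and -0.78 with anti-PD-1 antibody, and 0.10 and 0.70 with the combination (probe at chr1:163711056-163711115, mm9). All 6 treated arrays were above both vehicle arrays, and both combination arrays were above the rest. The combination was 6.01-fold above vehicle (log2 2.59 ± 0.61, adjusted p = 0.0269 in limma). Vehicle array 1 was far below vehicle array 2, and without it the log2 difference was 1.68 (adjusted p = 0.0363). The call of Fasl ended without either antibody array (adjusted p = 0.0502), without combination replicate 1 (0.0662) or 2 (0.146), and with no filter on dim probes (0.0527). Tnfsf10, which encodes TRAIL, had levels of -2.48 and -1.48 in vehicle, -0.30 and -0.84 with TP-16, -0.25 and -0.73 with the antibody, and 0.03 and 0.44 with the combination (chr3:27238508-27238567). The order of the groups was that of Fasl, with no overlap between vehicle and any treated group, and the combination was 4.64-fold above vehicle (2.22 ± 0.39, adjusted p = 0.0140).

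A probe 2780 bases from it, made for another transcript of Tnfsf10, went the other way. It read -0.95 and -0.10 in vehicle, -1.33 and -1.31 with TP-16, -0.97 and -1.09 with the antibody and -1.96 and -1.99 with the combination. This probe fell (-1.45 ± 0.27, adjusted p = 0.0152), and the mean of both probes differed by only 0.38 (adjusted p = 0.377), so the rise of Tnfsf10 holds for its RefSeq mRNA probe and not for the gene's probes as a whole.

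Of the receptors for these ligands, Tnfrsf11b rose, Tnfrsf10b, Tnfrsf22 and Tnfrsf23 did not pass, and the result for Fas depended on the probe. Fas, the death receptor for Fasl, was tested with a pair of probes. The brighter one, which the rule uses for the gene, is annotated as a Fas transcript joined to the retrotransposon ETn and aligns to chr4:40555124-40555183, away from the Fas gene on chromosome 19. It read 3.05 and 2.60 in vehicle, 2.86 and 2.87 with TP-16, 2.53 and 2.53 with the antibody and 1.96 and 2.09 with the combination, a difference of -0.80 ± 0.16 that is under a fold of 2 (adjusted p = 0.0192). Without vehicle replicate 2 the difference was -1.02, just past a fold of 2. The RefSeq mRNA probe at chr19:34402164-34402223 read -0.48 and -0.15 in vehicle, 0.33 and 0.28 with TP-16, 1.03 and 0.57 with the antibody and 0.74 and 1.04 with the combination. It rose 2.30-fold (1.20 ± 0.21, adjusted p = 0.0134), with all treated arrays above vehicle and overlap between the combination and the antibody alone. With RefSeq mRNA probes for all genes, 13 family genes were called (14.2% of all genes), 12 of them higher (5.63% of all genes), with Fas among the latter.

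Tnfrsf10b, the mouse death receptor for TRAIL, read 1.99 and 1.85 in vehicle, 1.63 and 1.58 with TP-16, 1.74 and 1.64 with the antibody and 1.37 and 1.31 with the combination. Vehicle was highest and the combination lowest with no overlap, at a size (-0.58 ± 0.11, adjusted p = 0.0154) under a fold of 2. Tnfrsf22 and Tnfrsf23, which encode TRAIL receptors without a working death domain, differed by -0.06 ± 0.18 and by 0.00 ± 0.20, with adjusted p-values of 0.809 and 0.989. Tnfrsf22 ranged from -0.41 to 0.00 and Tnfrsf23 from 3.41 to 3.98 over the 8 arrays, without separation of the groups. A dimmer probe of Tnfrsf22 gave -0.62 ± 0.19 (adjusted p = 0.0532), and those of Tnfrsf23 gave -0.48 ± 0.23 and -0.52 ± 0.19 (adjusted p = 0.160 and 0.0794). On these 3 probes both combination arrays lay below both vehicle arrays, at sizes under a fold of 2. Tnfrsf11b, which encodes osteoprotegerin, a soluble decoy receptor for RANKL that also binds TRAIL, rose 2.21-fold (1.14 ± 0.21, adjusted p = 0.0155). Its levels were -3.25 and -3.62 in vehicle, -3.24 and -2.81 with TP-16, -2.77 and -2.88 with the antibody and -2.45 and -2.13 with the combination (chr15:54082760-54082819). The vehicle and TP-16 arrays nearly met, and both combination arrays lay above the rest. Its rise was below a fold of 2 without vehicle replicate 2 (0.96) and small after normexp background correction (0.23, adjusted p = 0.123). Tnfsf11, which encodes RANKL, read -6.34 and -4.08 in vehicle, where neither array was well above background, and -3.27 and -3.70 with the combination, which is at least 1.38-fold higher, and the fit gave an adjusted p of 0.104. With TP-16 it read -4.37 and -4.44, and with the antibody -3.91 and -4.29.

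The ligands of the lymphotoxin and TNF locus on chromosome 17 lie side by side, with probe starts of Ltb and Tnf 3698 bases apart and those of Tnf and Lta 3480 bases apart. In the combination against vehicle Ltb and Tnf rose, and Lta did not pass the test with all arrays. Ltb, which encodes the membrane anchor of the lymphotoxin heterotrimer, had levels of 0.18 and 1.86 in vehicle, 2.79 and 2.28 with TP-16, 2.40 and 2.15 with the antibody and 3.10 and 3.76 with the combination (chr17:35333097-35333156). All treated arrays were above vehicle, and the combination was 5.31-fold higher (2.41 ± 0.56, adjusted p = 0.0259). Without vehicle replicate 1 the log2 difference was 1.57 (adjusted p = 0.0352), and the call ended without combination replicate 1 (0.0598) or 2 (0.143) and with no filter on dim probes (0.0527). Tnf, the founding cytokine of the family, read -2.64 and -1.48 in vehicle, -0.95 and -1.76 with TP-16, -0.94 and -1.39 with the antibody and -0.26 and 0.44 with the combination (chr17:35336795-35336854). The combination arrays stood above all others, while TP-16 overlapped vehicle, and the combination was 4.43-fold above vehicle (2.15 ± 0.49, adjusted p = 0.0252). Without vehicle replicate 1 the difference was 1.56 and did not pass (adjusted p = 0.0641), and the call also ended without combination replicate 1 (0.0529) or 2 (0.140) and with no filter on dim probes (0.0527). A probe of Tnf 172 bases away gave 1.14 ± 0.35 (adjusted p = 0.0530). Lta, whose product is secreted alone or bound to the Ltb product, read -4.67 and -2.44 in vehicle, -3.56 and -3.60 with TP-16, -4.01 and -4.08 with the antibody and -3.20 and -2.86 with the combination. The combination lay between the vehicle arrays (0.53 ± 0.67, adjusted p = 0.570). This result rests on them, with 1.64 without vehicle replicate 2 and -0.59 without vehicle replicate 1. Vehicle array 1 was not well above background, where the lowest such signal was -4.08, so 1.64 is a fitted value and not a measured size.

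Of the receptors for these ligands, Tnfrsf1b rose and Tnfrsf1a did not pass the test. Tnfrsf1b, which encodes TNFR2, the TNF receptor of lymphocytes and myeloid cells, had the smallest adjusted p of the family. It read 0.19 and 0.44 in vehicle, 0.91 and 1.01 with TP-16, 0.89 and 0.90 with the antibody and 1.35 and 1.78 with the combination (chr4:144804304-144804363). Single agents lay together above vehicle, and the combination lay above them, at 2.38-fold over vehicle (1.25 ± 0.18, adjusted p = 0.0105). A dimmer probe 29599 bases away gave -0.35 ± 0.20 (adjusted p = 0.213), and the mean of both gave 0.45 (adjusted p = 0.0932). Tnfrsf1a, which encodes TNFR1, the widely expressed receptor with a death domain, read 5.03 and 5.25 in vehicle, 5.09 and 5.17 with TP-16, 5.24 and 5.38 with the antibody and 5.20 and 5.34 with the combination, and the groups overlapped (0.13 ± 0.13, adjusted p = 0.468). Ltbr, the lymphotoxin beta receptor of stromal and myeloid cells, read 3.76 and 4.09 in vehicle, 3.45 and 3.65 with TP-16, 3.72 and 3.84 with the antibody and 3.55 and 3.70 with the combination (-0.30 ± 0.16, adjusted p = 0.191).

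Promoter sequence was taken from RefSeq (GRCm38.p6), which gave an entry for 33 of the 44 genes and 9 of the 11 risen genes. The 250 bases before the start site of 4 risen genes are shown because both neighbours Ltb and Tnf are among them and because Ltb, Tnfrsf18 and Tnfrsf1b hold a match to TTCNNNGAA, the letters of the element that STAT factors bind downstream of interferon gamma. Capitals mark that match and, in Ltb, also a match to the NF-kB consensus. The windows are chr17:35194257-35194506 on the plus strand for Ltb, chr17:35202008-35202257 on the minus strand for Tnf, chr4:156026072-156026321 on the plus strand for Tnfrsf18 and chr4:145246871-145247120 on the minus strand for Tnfrsf1b, each written 5′ to 3′ along the gene.
Ltb: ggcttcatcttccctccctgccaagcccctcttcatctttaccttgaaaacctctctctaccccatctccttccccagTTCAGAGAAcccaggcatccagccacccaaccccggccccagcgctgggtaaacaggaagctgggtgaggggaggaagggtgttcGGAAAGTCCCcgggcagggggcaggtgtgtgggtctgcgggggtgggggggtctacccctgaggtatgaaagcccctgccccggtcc
Tnf: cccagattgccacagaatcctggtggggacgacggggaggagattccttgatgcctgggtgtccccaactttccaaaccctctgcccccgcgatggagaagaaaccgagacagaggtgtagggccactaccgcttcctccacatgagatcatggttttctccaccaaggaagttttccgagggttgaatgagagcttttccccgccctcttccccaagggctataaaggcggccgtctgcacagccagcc
Tnfrsf18: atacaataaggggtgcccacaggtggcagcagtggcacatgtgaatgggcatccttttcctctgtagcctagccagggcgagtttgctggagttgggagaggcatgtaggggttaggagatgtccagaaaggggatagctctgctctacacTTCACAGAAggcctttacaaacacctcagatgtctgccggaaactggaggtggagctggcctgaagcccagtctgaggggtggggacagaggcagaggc
Tnfrsf1b: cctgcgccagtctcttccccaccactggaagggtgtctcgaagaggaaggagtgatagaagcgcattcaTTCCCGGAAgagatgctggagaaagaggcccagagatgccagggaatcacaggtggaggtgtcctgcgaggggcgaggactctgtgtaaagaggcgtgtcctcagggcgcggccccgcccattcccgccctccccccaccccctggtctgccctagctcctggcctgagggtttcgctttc

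Searched on both strands, TTCNNNGAA was found before 4 of the 9 risen genes (Ltb, Tnfrsf18, Tnfrsf1b and Tnfrsf25), before 4 of 22 tested genes that were not called higher, and before 8.13% of all 27025 genes of the table. The NF-kB consensus was found in 2 of 9 (Ltb and Tnfrsf25), in 1 of 22 and in 8.23% of all. TGACG, the core of the cAMP response element, was found in 3 of 9 (Fasl, Tnfrsf25 and Tnfsf10), in 2 of 22 and in 19.8% of all. The Tnf window held no match to any of them. Matches to different motifs did not overlap. A match is a description of letters, and no binding was measured here.

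Of the costimulatory receptors, Cd27, Tnfrsf18, Tnfrsf4 and Tnfrsf25 rose, and Tnfrsf9 and Tnfrsf14 did not pass. Cd27, the receptor of naive and memory T cells, read -6.14 and -4.01 in vehicle, -2.32 and -2.94 with TP-16, -3.23 and -3.47 with the antibody and -2.24 and -1.10 with the combination (chr6:125183200-125183259). Neither vehicle array was well above background, so the combination was at least 4.84-fold higher (adjusted p = 0.0222), TP-16 at least 2.50-fold higher (adjusted p = 0.124) and the antibody at least 1.51-fold higher (adjusted p = 0.361). After normexp correction the difference of the combination from vehicle was 1.1 on the log2 scale (adjusted p = 0.0146), less than that bound. The call of Cd27 ended with no filter on dim probes (adjusted p = 0.0502). Its ligand Cd70, made by activated lymphocytes and dendritic cells, read -4.59 and -3.47 in vehicle, -3.99 and -3.85 with TP-16, -2.79 and -3.29 with the antibody and -3.16 and -2.67 with the combination. The groups given the antibody were higher than those without it, and the difference between combination and vehicle was 1.11 ± 0.40 (adjusted p = 0.0792).

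Tnfrsf18 and Tnfrsf4 encode GITR and OX40, receptors of activated and regulatory T cells, and their probe starts lie 12302 bases apart on chromosome 4. Tnfrsf18 read -1.16 and 0.24 in vehicle, 0.67 and 0.95 with TP-16, 0.80 and 0.68 with the antibody and 1.01 and 1.33 with the combination (chr4:155402941-155403000). Tnfrsf4 read -0.46 and 0.24 in vehicle, 0.64 and 1.04 with TP-16, 0.98 and 0.75 with the antibody and 1.07 and 1.29 with the combination (chr4:155390639-155390698). In both genes every treated array exceeded both vehicle arrays and the combination was highest. Tnfrsf18 rose 3.09-fold (1.63 ± 0.44, adjusted p = 0.0381) and Tnfrsf4 rose 2.44-fold (1.29 ± 0.27, adjusted p = 0.0206) in the combination against vehicle. Both calls ended with no filter on dim probes (adjusted p = 0.0527 and 0.0504). Without vehicle replicate 1 the differences were 0.93 and 0.94, below a fold of 2. The Tnfrsf18 call ended without any array but vehicle replicate 2 (adjusted p = 0.0349 to 0.180), and that of Tnfrsf4 also without either combination array.

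The ligands of OX40 and GITR were dim. Tnfsf4, which encodes OX40L of antigen-presenting cells, read -3.83 and -4.69 in vehicle, -4.46 and -4.24 with TP-16, -3.38 and -3.55 with the antibody and -2.94 and -2.64 with the combination (chr1:163348347-163348406). TP-16 overlapped vehicle, both antibody groups lay above them, and the combination was 2.77-fold above vehicle (1.47 ± 0.29, adjusted p = 0.0182). Vehicle array 2 was not well above background, where the lowest such signal was -3.82, so this fold is a fitted value and not a measured size. A probe 69 bases away entered the test only through the combination, the group where it was brightest, and adds no support. After normexp correction the difference was 0.14 for the brighter probe (adjusted p = 0.306) and 0.06 for the other (adjusted p = 0.653), and after quantile normalization that of the brighter probe was 2.45 with an adjusted p of 0.0611. Tnfsf18, which encodes GITRL, was well above background only on the combination arrays. It read -6.23 and -4.91 in vehicle, -5.40 and -4.96 with TP-16, -5.31 and -5.25 with the antibody and -4.24 and -4.47 with the combination, which gives no fold, and the fit gave an adjusted p of 0.0737.

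Tnfrsf25, which encodes the death-domain receptor DR3 of T cells, read -2.84 and -2.64 in vehicle, -2.50 and -2.98 with TP-16, -1.82 and -2.60 with the antibody and -1.81 and -1.42 with the combination (chr4:151494160-151494219). It rose 2.17-fold (1.12 ± 0.31, adjusted p = 0.0419), with the largest adjusted p of the 12 calls, and the call ended when any array other than those of the anti-PD-1 group was left out. After normexp correction it was 0.48 (adjusted p = 0.0565), and with no filter on dim probes the adjusted p was 0.0567. Its ligand Tnfsf15, which encodes TL1A, read -2.67 and -4.15 in vehicle, -2.88 and -3.71 with TP-16, -2.95 and -2.70 with the antibody and -2.41 and -1.96 with the combination (1.23 ± 0.53, adjusted p = 0.123). Its dimmer probe was at least 2.18-fold higher in the combination than in vehicle (adjusted p = 0.0444). After normexp correction the dimmer probe differed by 0.26 on the log2 scale (adjusted p = 0.224), less than that bound. The brighter probe then differed by 0.29 (adjusted p = 0.289). With quantile normalization the differences were 2.39 (adjusted p = 0.0127) and 1.98 (adjusted p = 0.138). Tnfrsf9 and Tnfsf9, which encode the costimulatory receptor 4-1BB and its ligand, differed by 0.24 ± 0.26 and -0.27 ± 0.15, with adjusted p-values of 0.501 and 0.215.

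Tnfrsf12a, which encodes Fn14, the receptor for TWEAK on epithelial and stromal cells, was the only family gene to fall past both thresholds. It read 7.02 and 6.97 in vehicle, 5.64 and 6.43 with TP-16, 6.42 and 6.70 with the antibody and 5.99 and 5.72 with the combination (chr17:23812746-23812805). All treated arrays lay below vehicle, with a wide gap between both TP-16 arrays, and the combination was 2.21-fold lower (-1.14 ± 0.27, adjusted p = 0.0285). After quantile normalization, which shifts the median of all probes in this comparison from -0.20 to -0.01, the difference was -0.64 and did not pass (adjusted p = 0.0995). The authors' log2 values gave -0.63 (adjusted p = 0.101), and the call also ended with no filter on dim probes (adjusted p = 0.0527) and without any array but those of TP-16 (adjusted p = 0.0507 to 0.151). Its ligand Tnfsf12, which encodes TWEAK, read -1.13 and -1.22 in vehicle, -0.81 and -1.01 with TP-16, -1.16 and -1.21 with the antibody and -0.82 and -0.40 with the combination (0.56 ± 0.17, adjusted p = 0.0506).

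**Figure D2:**
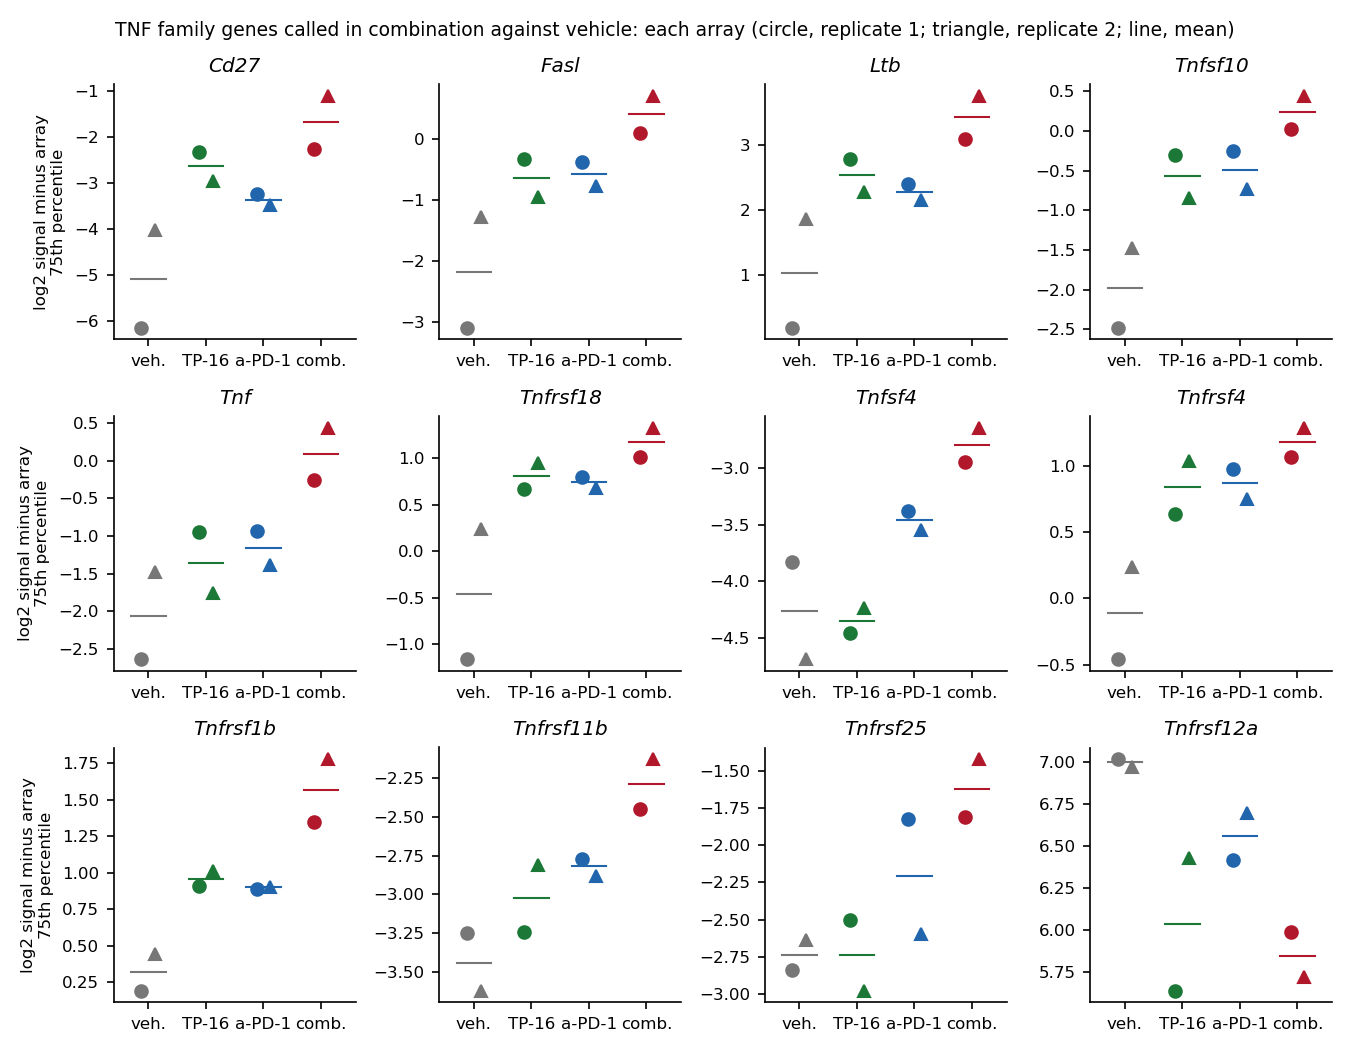
Level (log2 signal minus the 75th percentile of the array) of the 12 called genes on each of the 8 arrays, with the group mean as a line. Each panel has its own vertical axis. The combination is highest in 11 panels, and vehicle replicate 1 is the lowest array for genes such as Cd27 (-6.14) and Fasl (-3.10).

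The remaining tested members did not pass at adjusted p with a fold of 2 at the probe used for the gene. Tnfrsf17, the BCMA receptor of plasma cells, and Tnfrsf21, which encodes the death receptor DR6, had adjusted p-values of 0.0111 and 0.0109 with differences under a fold of 2 (-0.91 ± 0.14 and -0.81 ± 0.12). Ngfr, the low-affinity neurotrophin receptor, had a mean difference of 1.77 ± 0.89 that rested on combination replicate 2, which read -0.81 where the other 7 arrays lay between -4.24 and -3.82 (adjusted p = 0.173). The other genes of this kind were Eda, Tnfrsf11a, Tnfrsf13b, Tnfrsf19, Tnfrsf26, Tnfsf8, Tnfsf14 and Tnfsf13os, with differences from -0.27 to 0.65 and adjusted p-values from 0.0926 to 0.782. Tnfrsf13c, the BAFF receptor of B cells, was not well above background on either vehicle array, and no fold is given for it (adjusted p = 0.241).

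Probes of the same gene did not always move together. Of the 18 genes with several tested probes, 8 had probes with opposite signs in combination against vehicle, and in 7 the probes differed by at least 1 on the log2 scale. The widest gap was that of Tnfsf10 (3.67). In Tnfrsf21 the probe used for the gene gave -0.81 ± 0.12, under a fold of 2, and a probe 50470 bases away rose by 2.13 ± 0.31 (adjusted p = 0.0107). That probe read -2.51 and -3.12 in vehicle, -1.92 and -2.53 with TP-16, -1.93 and -2.11 with the antibody and -0.93 and -0.44 with the combination. In Tnfrsf14 the probes gave 1.17 ± 0.43 and -0.54 ± 0.16, the latter with an adjusted p of 0.0479. In Tnfrsf11a, which encodes RANK, 1 of 3 probes rose (1.20 ± 0.23, adjusted p = 0.0158), and the others gave 0.64 and 0.50. Over all 61 probes, 18 were called at adjusted p, 16 of them higher. Of all 31912 tested probes, 12.5% were called in either direction and 5.08% were called higher. Without the Tnfsf4 probe that entered only through the combination these were 17 and 15.

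**Figure D3:**
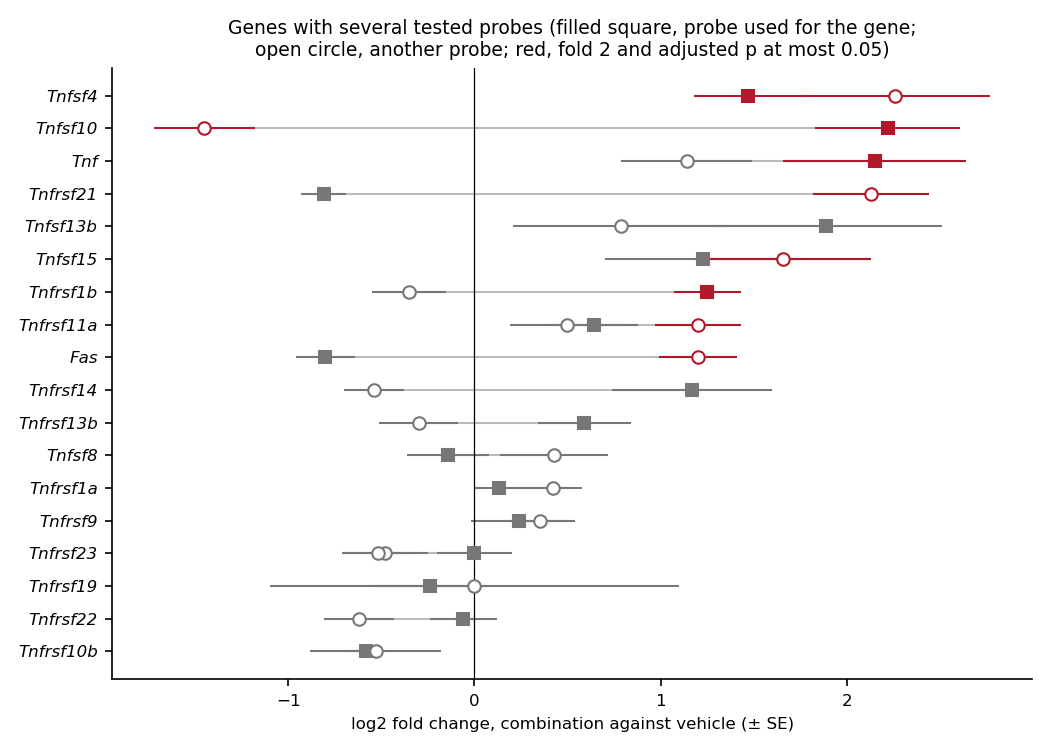
Log2 fold change between combination and vehicle (horizontal axis, with standard error) of each tested probe of the 18 genes that have several. Filled squares are the probes used for the genes, and red marks a fold of 2 with an adjusted p of at most 0.05. Probes of Tnfsf10 lie at -1.45 and 2.22, and those of Tnfrsf21 at -0.81 and 2.13.

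With single agents no family gene passed at adjusted p in limma. TP-16 against vehicle called 0 of 41 at adjusted p (0.0555% of all genes) and 5 of 41 at the unadjusted threshold (6.67% of all genes), and 11 genes had an unadjusted p of at most 0.05 at any fold (27.9% of all genes did). The 5 were Cd27, Fasl, Ltb, Tnfrsf18 and Tnfsf10, all higher. Cd27 has the bound given above, and the other 4 differed by 1.26 to 1.55 on the log2 scale with adjusted p-values of 0.112 to 0.184. Anti-PD-1 antibody against vehicle called 0 of 41 at adjusted p (0.074% of all genes) and 3 of 41 at the unadjusted threshold (4.14% of all genes), with 12 genes at an unadjusted p of at most 0.05 at any fold (15% of all genes were). Those 3 were Fasl (1.61 ± 0.61, adjusted p = 0.329), Tnfrsf18 (1.20 ± 0.44, adjusted p = 0.322) and Tnfsf10 (1.49 ± 0.39, adjusted p = 0.263), all higher. The methods' t-test called 0 in either comparison. The median over the family was 0.12 with TP-16 and 0.23 with the antibody, beside -0.15 and -0.10 over all genes. Without vehicle replicate 2, TP-16 called 13 (8.68% of all genes) and the antibody 12 (5.88%) at the unadjusted threshold, and without vehicle replicate 1 TP-16 called 3 (8.92%). Both comparisons share the vehicle arrays, so their calls are not independent.

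The combination had a higher mean than TP-16 in 31 of the 41 genes and a higher mean than anti-PD-1 antibody in 29, and at adjusted p no member passed in either comparison. Against TP-16, 0 of 41 passed at adjusted p (0% of all genes) and 4 of 41 at the unadjusted threshold (4.87% of all genes). These were Tnfsf4 (1.56 ± 0.29, adjusted p = 0.125), Tnf (1.44 ± 0.49, adjusted p = 0.175), Tnfrsf25 (1.12 ± 0.31, adjusted p = 0.145) and Cd70 (1.00 ± 0.40, adjusted p = 0.215), all higher. Against anti-PD-1 antibody, 0 of 41 passed at adjusted p (0.0139% of all genes) and 1 at the unadjusted threshold, Tnf, at 1.25 ± 0.49 (adjusted p = 0.180), where 4.7% of all genes did. Without a limit on the fold, the unadjusted p was at most 0.05 for 10 genes (23.7% of all genes) and 9 genes (29.1% of all genes). The median over the family was 0.40 against TP-16 and 0.43 against the antibody, beside -0.09 and -0.14 over all genes.

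Departure from additivity, the combination minus both single agents plus vehicle, asks whether both agents together differed from the sum of their log2 effects. At adjusted p 0 of 41 genes passed (0% of all genes), and at the unadjusted threshold 1 did (3.28% of all genes), Eda, the ectodysplasin ligand (adjusted p = 0.593). No size is given for Eda, because its probe was not well above background on any array of either single agent. That probe entered the test only through the combination, so its call adds no support. Without a limit on the fold, 2 genes had an unadjusted p of at most 0.05 (7% of all genes did). Among the risen genes the departure was below 0 in Tnfrsf18 (-0.83), Tnfsf10 (-0.68), Tnfrsf4 (-0.64), Fasl (-0.57) and Ltb (-0.36). It was above 0 in Tnfsf4 (0.77), Tnfrsf25 (0.60), Tnf (0.55), Tnfrsf11b (0.12) and Tnfrsf1b (0.03), and none of these 10 passed either threshold. These signs rest in part on the vehicle arrays. Without vehicle replicate 1 the departure of Fasl was 0.34, that of Ltb 0.47 and that of Tnfrsf11b -0.06, and without vehicle replicate 2 that of Tnf was -0.03 and that of Tnfrsf1b -0.09. Tnfrsf18 and Tnfsf10 stayed below 0 both ways, at -0.14 and -0.17 when the first vehicle array was left out and at -1.53 and -1.18 when the second was. The count at the unadjusted threshold was then 3 (5.85% of all genes) or 9 (4.92% of all genes), respectively, and 0 of 41 passed at adjusted p with either array left out. Cd27 has no exact departure, since it was not well above background in vehicle.

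Of 41 tested genes for intracellular proteins of TNF receptor signaling, 3 rose and 0 fell in the combination against vehicle at adjusted p, with a median of 0.05. Over all genes 5.57% were called higher and 8.61% lower, so the count of risen genes is near that share. These were Tnfaip3 (1.17 ± 0.15, adjusted p = 0.0102), which encodes A20, an inhibitor of NF-kB, Birc3 (1.50 ± 0.26, adjusted p = 0.0130), which encodes the ubiquitin ligase cIAP2, and Rel (1.06 ± 0.15, adjusted p = 0.0107), an NF-kB subunit of lymphocytes. The caspase Casp8 (0.58 ± 0.18, adjusted p = 0.0548) and the adaptor Fadd (0.03 ± 0.15, adjusted p = 0.876) did not pass. Of 21 tested genes known to be induced by TNF, 4 rose and 2 fell, with a median of 0.04, where 14.2% of all genes were called. The risen genes were Tnfaip3, Birc3, Icam1 (1.96 ± 0.37, adjusted p = 0.0158), an adhesion molecule for leukocytes, and Bcl3 (1.07 ± 0.19, adjusted p = 0.0149). The fallen genes were the cytokine Il6 (-1.16 ± 0.23, adjusted p = 0.0175) and the neutrophil chemokine Cxcl1 (-1.07 ± 0.31, adjusted p = 0.0449). Tnfaip3 and Birc3 stand in both lists, and neither list had a call at adjusted p with a single agent.

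Markers of T cells, NK cells and macrophages moved with the risen genes of the family. The summed signal of 11 T cell markers, as a log2 value relative to the 75th percentile, was 3.18 and 4.43 in vehicle, 5.15 and 4.84 with TP-16, 5.14 and 4.79 with the antibody and 5.42 and 6.17 with the combination. Vehicle array 1 was lowest and combination array 2 highest, as for Cd27, Fasl, Ltb and Tnf. The same arrays were lowest and highest for the NK cell markers (-1.28 and 1.06) and the macrophage markers (7.17 and 8.56). In the combination against vehicle 6 of the 11 T cell markers rose at adjusted p and 9 passed the unadjusted threshold, with a median of 2.83. Over all genes, 5.57% were called higher and 8.61% lower at adjusted p, and 17% passed the unadjusted threshold. Cd8a, the CD8 chain of cytotoxic T cells, rose by 3.76 ± 1.1 (adjusted p = 0.0477). Of the dendritic cell markers 4 of 6 rose, of the macrophage markers 5 of 8, of the fibroblast markers 3 of 6 and of the NK cell markers 1 of 5. Of the B cell and plasma cell markers 1 of 7 rose and 2 fell, of the neutrophil markers 2 of 6 fell, of the epithelial markers 2 of 5 fell, of the skeletal muscle markers 1 of 6 rose, and of the 5 endothelial markers and the 3 tested markers of epidermis none passed. The part of changes in cell content in the values of the family was not tested.

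**Figure D4:**
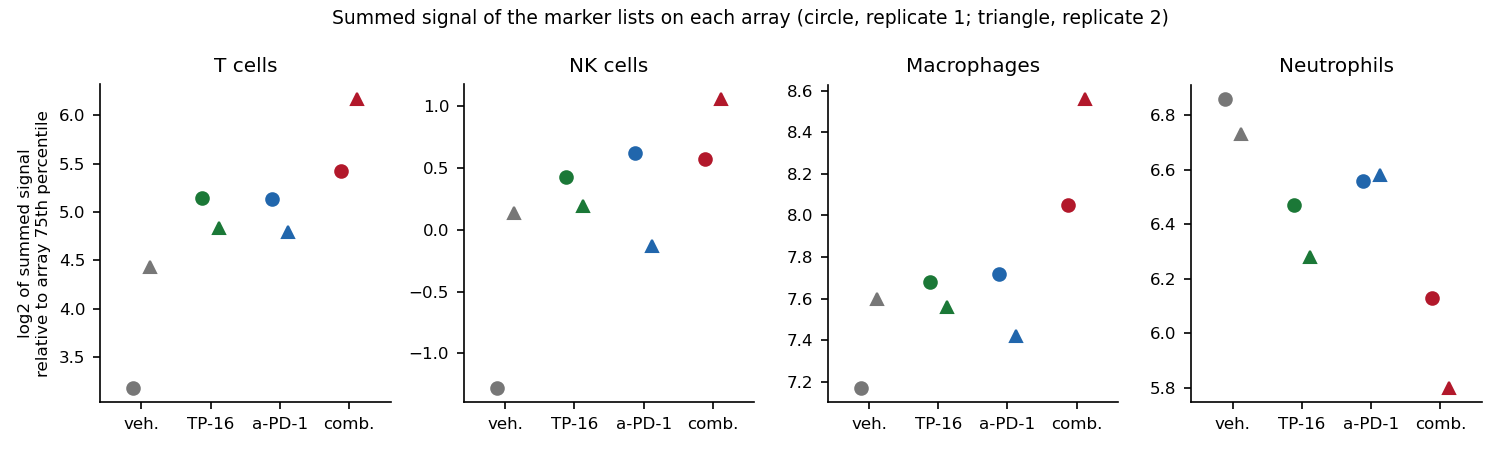
Summed signal of the marker lists of T cells, NK cells, macrophages and neutrophils on each of the 8 arrays, as log2 relative to the 75th percentile of the array. T cell markers run from 3.18 on vehicle replicate 1 to 6.17 on combination replicate 2, and neutrophil markers from 6.86 down to 5.80 on the same arrays.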

How the data were processed

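Whole CT26 tumors of 4 groups were measured on 8 one-colour arrays. Groups, replicate numbers and doses came from the labels of the samples. The labels give a column kit for RNA extraction, the methods TRIzol. The authors deposited scanner output from Agilent Feature Extraction 10.7.1.1 (per the labels), in which each intensity is background-subtracted and detrended, and a table of log2 values from GeneSpring, whose normalization is not given in the sources used here. That table's medians are 5.16 on every array and its sorted columns nearly equal, as after quantile normalization. Probe positions (mm9) are those of the array.

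Spots marked as outliers were dropped, and 38 probes without a clean spot on some array were left out. Spots of a probe were averaged, and the 75th percentile of the array was subtracted from the log2 intensity. All 8 arrays entered 1 fit in limma 3.58.1 (R 4.3.3), with 1 mean per group, 4 residual degrees of freedom and Benjamini-Hochberg adjustment over 31912 probes. P-values measure the spread between these samples. The number of arrays limits the precision. An "at least" fold sets a dim group at the lowest signal well above background on its arrays. Replicate numbers did not pair the arrays (correlations of deviations from -0.193 to 0.290).

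Members were found by the gene names of the array. For the counts over all genes, 58.3% of probes took their symbol from RefSeq (GRCm38.p6), which also gave the promoters, and the others kept the array's name. Python 3.11.15 and matplotlib 3.10.9 were also used. The calculations were tested on simulated data. The members, the gene lists and the alternatives were chosen with earlier results of these data known. Values on every array are given for genes past a fold of 2 and adjusted p, for their ligand or receptor partners and for the TNF and Fas axes. Some other members were named after their values were seen (Ngfr, Tnfrsf17, Tnfrsf21 and their probes). Alternatives were quantile normalization, normexp correction with an offset of 50, other filters on dim probes, the mean of a gene's probes, the authors' log2 values, the replicate block, fitting only the groups compared, the methods' t-test, moderation with a trend and robust to outliers, and leaving out each array. RefSeq mRNA probes and a count of every probe were added after seeing the data. No block for the slide could be fitted, because a single slide held every array.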

Additional observations from a re-analysis of the deposited data

How the results depend on the processing

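Counts are family genes called at a fold of 2 and unadjusted p, unless adjusted p or probes are named, with the share of all genes in parentheses. In the combination against vehicle, 18 genes were called (17%) and 12 at adjusted p (14.2%). Normexp correction gave 11 (9.89%) and the methods' t-test 4 (8.20%), and the count ran from 9 to 21 when 1 array was left out. At adjusted p the count was 4 with no filter on dim probes (7.62%), and 0 (0%) with only the groups compared or with the methods' t-test. It ran from 0 (without combination replicate 2, 0% of all genes) to 18 (without vehicle replicate 2, 12.4% of all genes) when 1 array was left out. A lone array is assumed to vary like the other groups. With quantile normalization 14 genes were called at adjusted p (11.4% of all genes), all higher (7.43% of all genes). Tnfsf18, counted here and among the 18 genes called at unadjusted p with all arrays, entered the test only through the combination.

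In TP-16 against vehicle, 5 genes were called (6.67%), 9 with quantile normalization (5.92%) or the authors' log2 values (5.91%), 2 with normexp correction (2.74%) or only the groups compared (5.43%), 0 with the methods' t-test (1.86%), and 1 to 13 when 1 array was left out. In anti-PD-1 antibody against vehicle, 3 were called (4.14%), 8 with quantile normalization or the authors' log2 values (4.68% each), 1 with only the groups compared (3.22%), 0 with the methods' t-test (1.07%), 5 with RefSeq mRNA probes (4.22%), and 5 of 61 probes with every probe counted (3.83% of all probes). Again, leaving out 1 array moved the count both ways. At adjusted p these comparisons called 0 members under every alternative that kept both arrays of each group compared. The share of all genes then ran from 0% to 1.86% with TP-16 and from 0% to 0.116% with the antibody. Some members were called when 1 array was left out.

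In the combination against TP-16, 4 were called (4.87%), 2 with quantile normalization or the authors' log2 values (4.16% each) or probes above background on all arrays (3.84%), 1 with normexp correction (2.20%) or the methods' t-test (1.86%), 7 of 61 probes with every probe counted (4.34% of all probes), and 1 to 6 when 1 array was left out. In the combination against anti-PD-1 antibody, 1 was called (4.70%), 4 with quantile normalization or the authors' log2 values (4.54% each), 2 with normexp correction (2.35%), trended and robust moderation (4.72%) or the methods' t-test (2%), 5 with only the groups compared (5.83%), 3 of 61 probes with every probe counted (4.27% of all probes), and 0 with no filter on dim probes (4.88%). That count, too, moved both ways when 1 array was left out. For the departure from additivity, 1 was called (3.28%), and 0 with quantile normalization, normexp correction, the authors' log2 values, probes above background on all arrays or trended and robust moderation (1.11% to 3.08%). Here the count stayed or rose when 1 array was left out.

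With the replicate number as a block, the count in the combination against anti-PD-1 antibody was 0 (4.95% of all genes). Tnfrsf25 then had an adjusted p of 0.059 in limma in the combination against vehicle. The block changed no other call of that comparison among the genes given with values on every array. Fas turned from -0.80 to 1.20 with the RefSeq mRNA probe. A slide block was not run. The cause of these shifts was not tested, apart from the fewer arrays or fewer probes that some alternatives have by construction. Depth is not given by arrays, and dim genes such as Cd27 and Tnfsf18 have only a bound in vehicle.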
